A study of Mus musculus with 18 samples.

Results

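The clustered protocadherin genes are a family of cell-surface adhesion genes laid out in 3 neighbouring clusters on mouse chromosome 18. Members were taken by symbol from the GENCODE annotation of the mm9 assembly: *Pcdha*, *Pcdhb* or *Pcdhg* followed by a number, or by a letter and a number. The rule gave 25 of the 37310 annotated genes. They are 22 *Pcdhb* genes, of which *Pcdhb20* is annotated as a pseudogene, 2 *Pcdha* genes (*Pcdha3* and *Pcdha11*) and 1 *Pcdhg* gene (*Pcdhgc5*). In this annotation *Pcdha11* and *Pcdhgc5* are merged models that join many alternative starts, with 10 transcripts each. The alpha and gamma variable exons, other than that of *Pcdha3*, thus have no gene entry of their own. Those that begin an annotated transcript are described here by transcript, at 11 separate alpha and 9 separate gamma starts. Whether the annotation holds every variable exon was not examined. A peak is called intronic where it meets no annotated exon, so a variable exon missing from the annotation would not be seen.

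The study examined how KAP1, a corepressor brought to DNA by KRAB zinc finger proteins, controls clusters of KRAB zinc finger protein genes. KAP1 and the histone methyltransferase SETDB1 were mapped by ChIP-seq in WT Hepa 1.6 cells, a hepatoma line (Hepa 1-6) established from the BW7756 tumour of a C57L mouse. H3K9me3, the repressive mark that SETDB1 deposits, and H3K27ac, a mark of active promoters and enhancers, were mapped in mouse embryonic fibroblasts (MEFs) of the C57BL/6 background (C57BL/6J in the methods), either WT (*Kap1* loxP/loxP) or *Kap1* KO. The study's methods state, for the RNA-seq of these MEFs, that the KO cells were 1 selected clone passaged for long beside cells without the excision; whether the ChIP-seq used the same clone is not given in the sources used here. Each of these 6 lists came from 1 library, so that the spread between libraries cannot be measured and no genotype difference was tested. Because the KAP1 and SETDB1 lists used here come from another cell type than the histone mark lists, positions can be set side by side but not assigned to the same cells.

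As background, each alpha or gamma transcript begins at its own promoter, ahead of a large variable exon that is spliced to constant exons shared by its cluster, whereas beta genes are mostly single-exon genes without shared constant exons. In neurons, individual cells use different sets of these promoters, a choice that involves DNA methylation, CTCF and cohesin and gives cells distinct surface identities. Activity of some members is also known outside the nervous system.

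The lists hold 13366 KAP1, 2957 SETDB1, 14425 WT H3K9me3, 4319 KO H3K9me3, 36275 WT H3K27ac and 36436 KO H3K27ac peaks. Each peak carries a score deposited by the authors, and the number of reads behind it is unknown, as is the depth of each library. A place without a peak may therefore hold signal under the threshold. The lowest score was 80 in the Hepa 1.6 lists and about 50 in the MEF lists, and many H3K27ac peaks share a score of 3100, which 9975 WT and 7710 KO peaks have, although the highest score in each list was 3233. Scores serve here to rank peaks. Every SETDB1 entry is identical to a KAP1 entry, score included, so the SETDB1 list is a subset of the KAP1 list and gives no separate SETDB1 score.

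The cell type of the MEF libraries was checked on H3K27ac at gene starts, in a window from 1 kb before to 3 kb after the 5′ end of the gene. All 10 fibroblast genes (*Col1a1*, *Col1a2*, *Col3a1*, *Fn1*, *Thy1*, *Pdgfra*, *Pdgfrb*, *Vim*, *Twist1* and *Prrx1*) had a peak in both genotypes. Of the 9 neuronal genes found in the annotation, *Tubb3* and *Syn1* had one in both genotypes and the other 7 had none. Of 10 hepatocyte genes, *Apob* had a peak in KO and none had one in WT. Of 8 embryonic stem cell genes, *Sox2* had a peak in both genotypes, and *Dppa5a* and *Esrrb* had one in KO alone. Of 5 epithelial and 5 blood genes, *Krt8* and *Cd34* had a peak in WT and none had one in KO. Beside these counts, 54.1% in WT and 52.7% in KO of the protein-coding genes of the autosomes other than 18 had a peak there. *Pdgfrb* and *Ttr*, on chromosome 18, and *Syp* and *Syn1*, on the X chromosome, lie outside that background. The Hepa 1.6 lists hold no mark of transcription and give no such check. The deletion of *Kap1* (*Trim28*) cannot be read from peak lists either, and the *Trim28* start carried an H3K27ac peak in both genotypes.

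Chromosome 18 itself differed between the MEF genotypes, which bears on every genotype value given here for this chromosome. It held 829 H3K27ac peaks in WT and 1240 in KO, 1.50 KO peaks for each WT peak, while this ratio ran from 0.828 to 1.10 on the 18 other autosomes, with a median of 0.992. Over the 9 full bins of 10 Mb along chromosome 18 the ratio lay between 1.29 and 2.00, and the bin that holds the clusters had the lowest, 1.29. H3K9me3 peaks numbered 81 in WT and 80 in KO, a ratio of 0.988, against 0.0712 to 0.788 on the other autosomes. In WT the chromosome had 0.925 H3K9me3 peaks per Mb, where the other autosomes together had 6.15. The part of this chromosome-wide difference in the results was not tested.

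**Figure D1:**
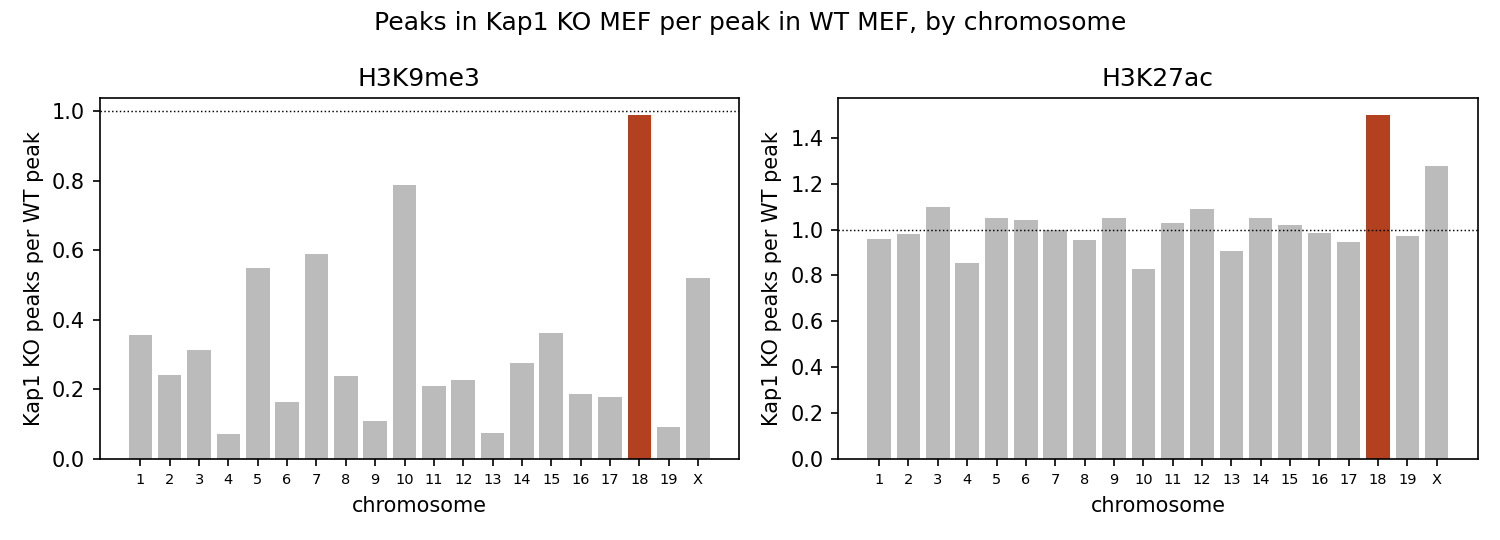
Number of peaks in the *Kap1* KO MEF list for each peak in the WT MEF list, by chromosome, for H3K9me3 (left) and H3K27ac (right), with chromosome 18 in red and equality as a dotted line. Chromosome 18 stands at 0.988 and 1.50, above each other autosome for both marks.

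The *Pcdha* span (chr18:37089939-37347311, mm9) covers 257 kb, the *Pcdhb* span (chr18:37424652-37681073) 256 kb and the *Pcdhg* span (chr18:37833989-38001527) 168 kb. Together they make up 0.778% of the known bases of the chromosome and hold no unknown base. A peak was counted inside when its middle fell in a span. Around the gene starts most sequence of these paralogs is distinct: in the start windows, words of 100 bases were found once in the genome for 95.3% or more of positions, with a median of 99.8% over the 25 genes. The remaining sequence of the long *Pcdha11* and *Pcdhgc5* models was not examined in this way.

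The annotated starts of the clustered protocadherin genes were free of KAP1 and SETDB1 peaks in Hepa 1.6. None of the 25 genes had a KAP1 peak in the start window, while 123 of the 493 other protein-coding genes of chromosome 18 did (24.9%). As SETDB1 entries are a subset of the KAP1 entries, none could then have a SETDB1 peak, which 12 of the 493 had (2.43%). The SETDB1 count of 0 lies near that background. The exact Clopper-Pearson 95% interval of 0 of 25 reaches 13.7% and, like every interval given here, covers counting error only. With the full KAP1 list, the share of other genes with KAP1 lies above that limit. With the 50% of the list that has the highest scores, that share was 13.6%, which lies within the interval.

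Away from the annotated starts, the spans held 4 KAP1 peaks, 5.87 per Mb, beside 5.48 per Mb on the rest of the chromosome. They are 0.833% of the 480 KAP1 peaks of chromosome 18 (95% interval 0.228 to 2.12%), and the spans' share of the chromosome's length lies within that interval. In the alpha cluster the peak lies at chr18:37141328-37142203, in an intron of *Pcdha11*, with a score of 121. In the beta cluster it lies at chr18:37523908-37524481, with a score of 91, between *Pcdhb8* and *Pcdhb9*, where no gene is annotated. The gamma cluster has a pair, both in introns of *Pcdhgc5*: chr18:37881650-37882345 with a score of 192, and chr18:37922983-37923655 with a score of 144. Only the peak with a score of 192 was above the median of the KAP1 list, which is 149.

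Of these 4 peaks, 3 also belong to the SETDB1 list, 1 in each cluster, and the gamma peak with a score of 144 does not. This is 75.0% (95% interval 19.4 to 99.4%), where 107 of the 476 KAP1 peaks on the rest of the chromosome belong to the SETDB1 list (22.5%, 18.8 to 26.5%). The intervals overlap. SETDB1 peaks stood at 4.40 per Mb in the spans and 1.23 per Mb on the rest of the chromosome, and the spans held 2.73% of its 110 SETDB1 peaks (0.566 to 7.76%). The spans' share of the chromosome's length, 0.778%, lies within that interval. With the 50% of the list that has the highest scores, no SETDB1 peak was left in the spans. None of the 4 KAP1 peaks shared bases with an H3K27ac peak of MEFs, in WT or in KO (95% interval up to 60.2%). On the rest of the chromosome 30.3% and 36.1% of KAP1 peaks did, both within that interval.

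H3K9me3 peaks were also absent from the annotated starts. None of the 25 genes had an H3K9me3 peak in the start window in WT or in KO MEFs. Among the other protein-coding genes of the chromosome 5 of 493 had one in WT (1.01%) and 5 of 493 in KO (1.01%), so that a count of 0 lies near the background.

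Inside the spans the WT list held 3 H3K9me3 peaks and the KO list held 1, at other places. The WT peak in the alpha cluster, chr18:37141551-37141885, with a score of 62.7, lies within the KAP1 and SETDB1 peak that Hepa 1.6 cells have in the *Pcdha11* intron. The WT peaks in the beta cluster, chr18:37526403-37527009 with a score of 103 and chr18:37527733-37528206 with a score of 67.7, lie between *Pcdhb8* and *Pcdhb9*, 1922 and 3252 bases from the KAP1 and SETDB1 peak of that interval. A further WT peak with a score of 95.3, at chr18:37401015-37401557, lies between the alpha and beta clusters. The KO peak, chr18:37841927-37842262 in an intron of *Pcdhgc5*, had a score of 50.8, close to the lowest of its list, and no WT peak overlaps it.

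Thus 0 of the 3 WT H3K9me3 peaks in the spans shared bases with a KO peak (95% interval up to 70.8%), and on the rest of chromosome 18, 11 of 78 did (14.1%, 7.26 to 23.8%). The loss of WT peaks from the KO list was therefore not told apart from that along the chromosome. On the other autosomes together the share was 3.07%. For the rest of chromosome 18 it was 30.4% with a score of at least 80 in both lists, where 1 WT peak was left in the spans. Of the 3 WT peaks, 1 shared bases with a KAP1 peak, beside 18 of 78 on the rest of the chromosome (23.1%, 14.3 to 34.0%). The spans held 3.70% of the 81 WT peaks of the chromosome (0.770 to 10.4%) and 1.25% of the 80 KO peaks (0.0316 to 6.77%). Per Mb this is 4.40 peaks in WT, beside 0.897 on the rest of the chromosome and 6.15 on the other autosomes, and 1.47 in KO, beside 0.909 and 1.80. The spans' share of the chromosome's length, 0.778%, lies within the intervals of the WT and KO percents. With the WT list held to the length of the KO list by its highest scores, no WT peak was left in the spans. The 3 WT peaks covered 0.208% of the bases of the spans and the KO peak 0.0493%, and with a score of at least 80 these values were 0.0891% and 0.

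**Figure D2:**
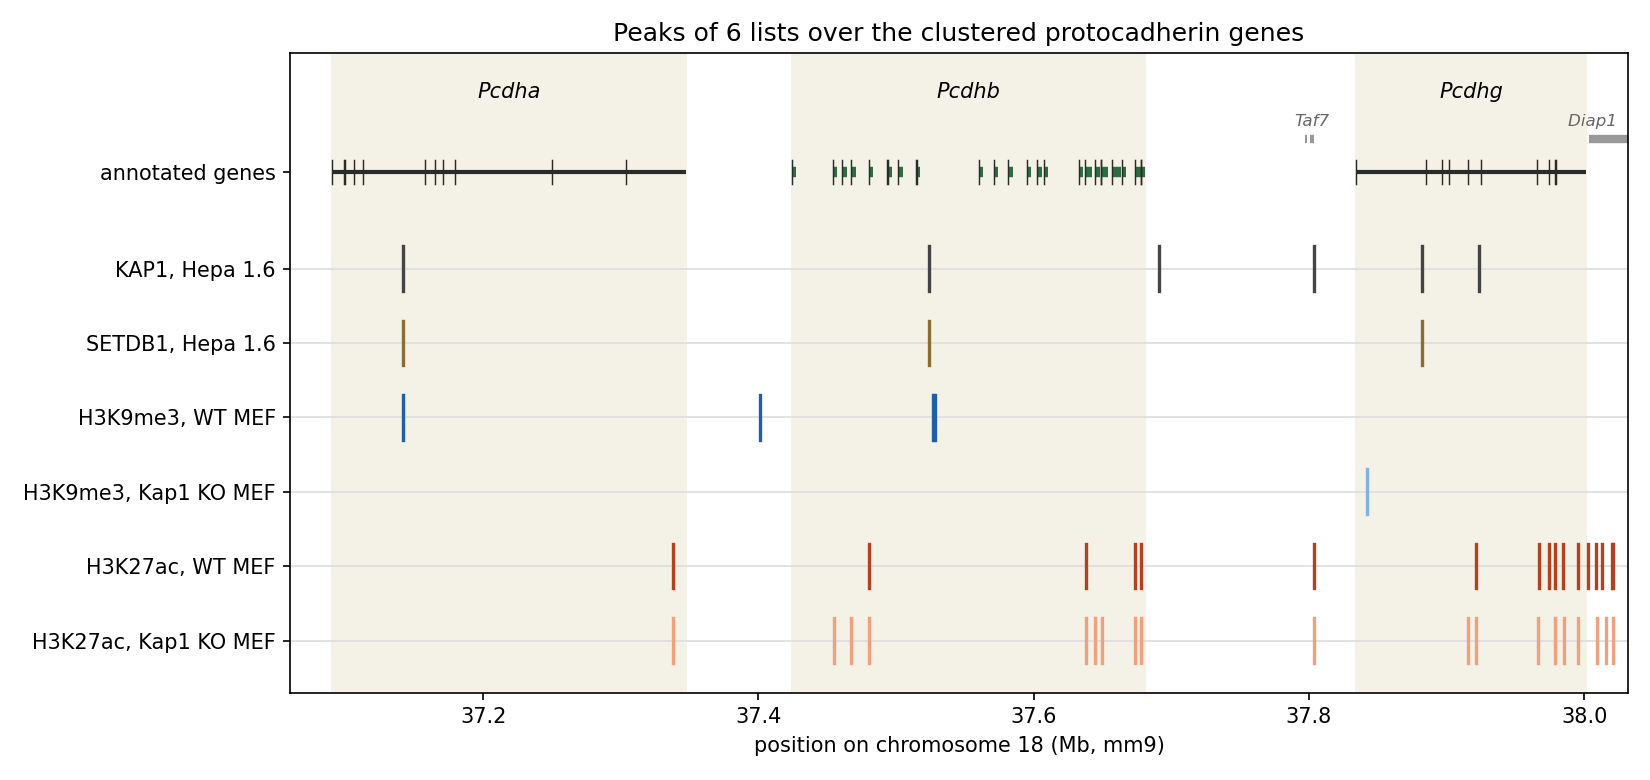
Map of the clustered protocadherin genes on chromosome 18 (mm9, position in Mb), with annotated genes at the top (short ticks mark transcript starts, shaded bands the 3 spans) and a bar at the middle of each peak of the 6 lists; bars do not show peak width. KAP1 and SETDB1 share 3 of 4 places in the spans, and H3K27ac lies at part of the beta starts, in the middle and distal parts of the gamma cluster and at 1 place near the distal end of the alpha cluster.

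H3K27ac differed among the clusters. The spans held 11 WT and 15 KO peaks, which per Mb is 1.72 times the 9.41 of the rest of the chromosome in WT and 1.56 times its 14.1 in KO. These are 1.33% of the chromosome's WT peaks (95% interval 0.664 to 2.36%) and 1.21% of its KO peaks (0.679 to 1.99%), and the spans' share of its length, 0.778%, lies within both intervals. In the alpha cluster each genotype had 1 peak, in the beta cluster WT had 4 and KO had 8, and in the gamma cluster each had 6. By coverage, 0.657% of the alpha span, 1.76% of the beta span and 9.86% of the gamma span lay under WT peaks, and 0.687%, 3.57% and 9.65% under KO peaks. The rest of the chromosome had 2.03% of its bases under WT peaks and 3.07% under KO peaks. Thus the gamma span lay above the rest of the chromosome in both genotypes and the alpha span below it. The beta span lay below the rest in WT and above it in KO. No interval was calculated for coverage.

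Fewer clustered protocadherin genes than other genes had H3K27ac at the start. In WT, 4 of 25 genes had a peak in the start window (16.0%, 95% interval 4.54 to 36.1%), against 273 of the 493 other protein-coding genes of chromosome 18 (55.4%). In KO, 8 of 25 did (32.0%, 14.9 to 53.5%), against 278 of 493 (56.4%). With the 50% of each list that has the highest scores, the count was 0 in WT and 2 in KO (*Pcdhb5* and *Pcdhb16*), where 49.7% and 52.3% of the 493 other genes still had a peak. All of the members with a peak are in the beta cluster. The 2 *Pcdha* genes and *Pcdhgc5* had no peak at their 5′ end in either genotype, although *Pcdhgc5* had several further in.

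The 4 genes with H3K27ac in both genotypes were *Pcdhb5*, *Pcdhb16*, *Pcdhb21* and *Pcdhb22*, each with the peak over its transcript start and the beginning of its exon. *Pcdhb5* had a score of 386 in WT and 997 in KO. *Pcdhb16* had 497 in WT and 590.3 in KO. *Pcdhb21* had 88.3 in WT and 285 in KO. The last beta gene, *Pcdhb22*, had 177 in WT and 480.1 in KO. All 4 scores were thus higher in the KO list. In WT they all lay below the list's median of 686.

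*Pcdhb2*, *Pcdhb4*, *Pcdhb17* and *Pcdhb18* had an H3K27ac peak at the start in KO alone, with scores of 71.4, 76.8, 59.7 and 56.5. The count of genes with a peak in KO alone was itself added after the data had been seen. It is 4 of 25 genes (16.0%, 95% interval 4.54 to 36.1%), where 15 of the 493 other protein-coding genes of the chromosome had a peak in KO only (3.04%). No member had one in WT only, against 10 of the 493 (2.03%). All of the KO-only scores are below 80, the cutoff named in the study's methods, and with a score of at least 80 in both lists the count of such genes was 0, beside 3.04% of the other genes. It was also 0, beside 2.03%, when the KO list was held to its 829 highest peaks on chromosome 18, the number of the WT list, a comparison likewise added later. Both counts of 0 lie near the background. *Pcdhb17* and *Pcdhb18* follow *Pcdhb16*, and *Pcdhb2* and *Pcdhb4* lie upstream of *Pcdhb5*, on either side of *Pcdhb3*. The remaining 14 beta genes had no peak of any of the 6 lists in the start window.

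Across the spans, 5 of the 15 KO peaks did not overlap a WT peak (33.3%, 95% interval 11.8 to 61.6%), and on the rest of the chromosome 523 of 1225 did not (42.7%, 39.9 to 45.5%). On the other autosomes this share was 21.8%. So the clusters were not told apart from their chromosome by the share of KO peaks without a WT peak. The 5 KO peaks in the spans without a WT peak had scores between 56.5 and 77.0, all under 80. Of the 523 elsewhere on the chromosome, 23.5% were under 80. The start peaks of the 4 beta genes with a peak in KO alone are among the 5, so this partly repeats their scores. No interval was calculated for it. In the other direction, 10 of the 11 WT peaks overlapped a KO peak (90.9%, 58.7 to 99.8%), beside 724 of 818 (88.5%, 86.1 to 90.6%).

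The same held for the order of the scores. Of the 10 WT peaks in the spans that overlap a KO peak, 9 had a score below 3100 in both lists, and 6 of the 9 had the higher score in KO (66.7%, 95% interval 29.9 to 92.5%). On the rest of the chromosome 334 of 442 did (75.6%, 71.3 to 79.5%), and on the other autosomes 39.2%. The 4 beta peaks found in both genotypes all had the higher score in KO. The alpha peak had the higher score in WT, and gamma peaks went both ways. The beta peaks alone were not set against the chromosome. The part of the chromosome-wide difference in their scores was not tested, and a change particular to the clusters cannot be read from these scores.

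**Figure D3:**
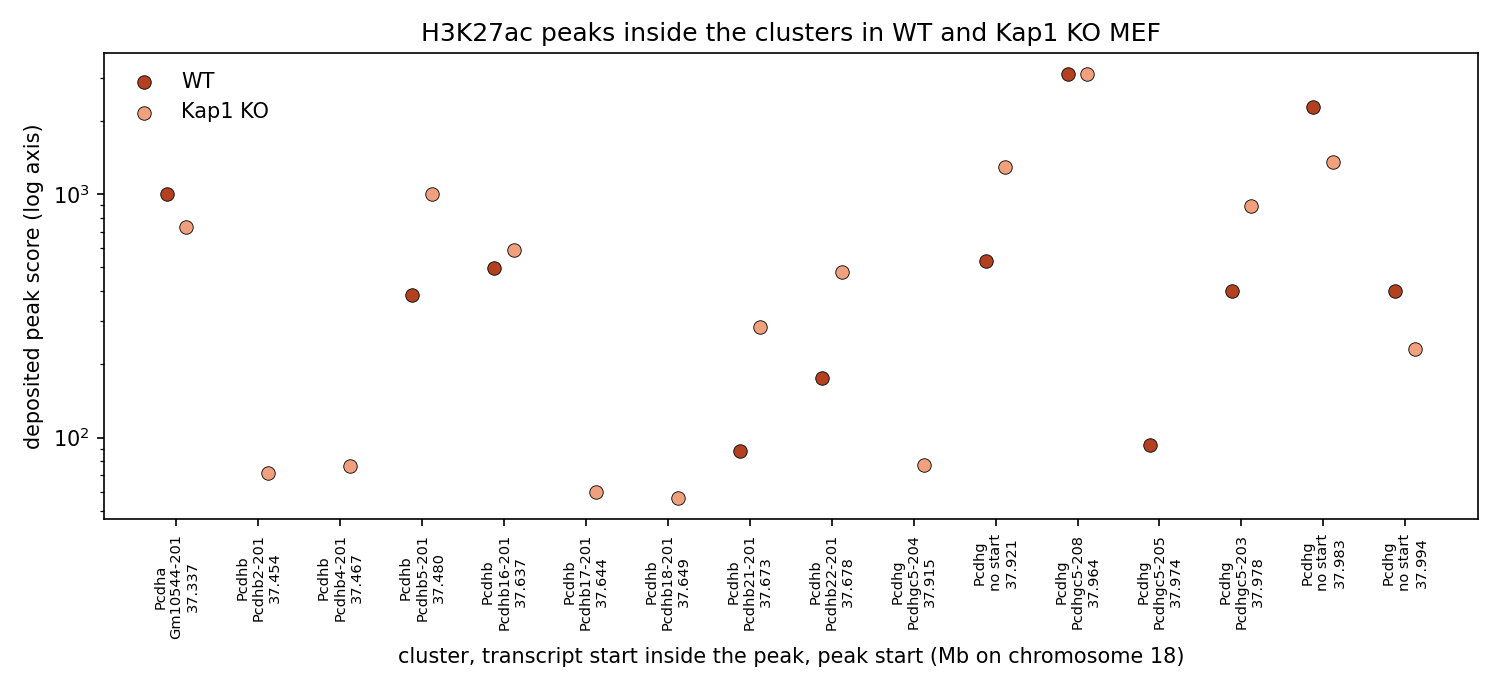
Deposited score (log axis) of each H3K27ac peak inside the 3 spans in WT (dark) and *Kap1* KO (light) MEFs, ordered along chromosome 18, with the cluster and the transcript whose start lies in the peak; a missing point means no peak in that list. The 5 peaks of KO alone lie between 56.5 and 77.0, and 1 gamma peak has a score of 3100 in both lists, a value that many peaks share.

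The gamma cluster carried the broadest acetylation. Its highest peak, chr18:37964353-37969840 in WT, had a score of 3100 in both genotypes, spans 5488 bases in WT and 5968 in KO, and covers the start and variable exon of transcript *Pcdhgc5*-208 at position 37966064. Around the starts of *Pcdhgc5*-203 and *Pcdhgc5*-209, the most distal ones, a peak had a score of 398 in WT and 891 in KO. Further downstream in *Pcdhgc5*, a peak over an exon had 2280.2 in WT and 1357 in KO, and an intronic one 398 in WT and 230.1 in KO. Upstream, a peak at chr18:37920632-37922082, where no exon is annotated, had 531 in WT and 1291 in KO. It lies between the annotated starts of *Pcdhgc5*-204 and *Pcdhgc5*-202, 901 bases from the KAP1 peak with a score of 144. Whether it meets a start missing from the annotation was not examined. Scores were higher in KO for some gamma peaks and in WT for others.

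Peaks in 1 genotype occurred at gamma starts too. The start of *Pcdhgc5*-205 had a peak in WT alone, with a score of 93.0. The start of *Pcdhgc5*-204 had one in KO alone, with a score of 77.0. Counting starts within 500 bases of each other once, 3 of 9 annotated gamma starts had H3K27ac in WT and 3 in KO. Counted in the same way, 42.8% in WT and 45.1% in KO of the 849 transcript starts of the other protein-coding genes of the chromosome had a peak. No annotated gamma start upstream of *Pcdhgc5*-204 had a peak. No annotated alpha start, of 11, had a peak of any of the 6 lists. Of the 849, these shares had H3K27ac, 17.3% had KAP1 and under 2% had each of the other lists. Any start missing from the annotation is not in these counts.

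The H3K27ac peak counted for the alpha cluster, with a score of 1001 in WT and 730.4 in KO, covers the start of *Gm10544*, a long noncoding RNA annotated on the opposite strand near the distal end of the cluster. It lies downstream of the annotated variable exons. Thus both genotypes showed acetylation near the distal end of the alpha cluster, in the middle and distal parts of the gamma cluster and at part of the beta genes.

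Members with and without H3K27ac had similar CpG density. In start windows, the median was 21.0 CpG per kb for the 8 members with a peak in either genotype, and 21.0 for the 17 without. Over the other protein-coding genes of the chromosome the medians were 30.2 with a peak and 12.7 without. The windows of *Pcdha11* and *Pcdha3* had the most CpG per kb among the members, 34.2 and 31.5, and had no peak.

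Of the other protein-coding genes within the spans, between them or within 100 kb of them, *Taf7*, *Diap1* and *Hdac3*, of 7 in all, had H3K27ac at the start in both genotypes, beside 55.4% and 56.4% of the chromosome's protein-coding genes outside the family. *Taf7*, which encodes a subunit of the general transcription factor TFIID, lies between the beta and gamma clusters and had scores of 2836 in WT and 2610 in KO. It was also the neighbour with a KAP1 peak at its start, with a score of 92, where 24.9% of those genes had one. *Diap1*, a formin gene that begins downstream of the gamma cluster and is read towards it, had a score of 3100 in both genotypes. *Gm6756*, *Gm10545* (inside the alpha span), *Slc25a2* and *3222401L13Rik* had no peak of any list at the start, and none of the 7 had an H3K9me3 or SETDB1 peak there.

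Genes of factors known to act on protocadherin choice or silencing were mostly acetylated at the start. Of 17 such genes, among them *Ctcf*, the cohesin genes *Rad21*, *Smc1a* and *Smc3*, *Smchd1*, *Dnmt3b* and *Setdb1*, 16 had an H3K27ac peak at the start in both genotypes, and *Stag1* had none. Over the protein-coding genes of the other autosomes the share with a peak was 54.1% in WT and 52.7% in KO. *Smc1a* and *Stag2* lie on the X chromosome, outside that background. *Rad21*, *Nipbl*, *Atf7ip* and *Ehmt1* had a KAP1 peak there, with scores of 333, 116, 321 and 81, and that of *Atf7ip*, a partner of SETDB1, is in the SETDB1 list too. These 4 of 17 stand beside 19.1% of the protein-coding genes of the other autosomes with KAP1 at the start. None of the 17 had H3K9me3 at the start, where 2.92% of those genes had it in WT and 0.780% in KO.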

How the data were processed

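Peak lists of KAP1 and SETDB1 (Hepa 1.6) and of H3K9me3 and H3K27ac (WT and *Kap1* KO MEFs) were used as deposited, with 1 library per list. The submitters' processing notes name Bowtie2 2.2.1 for mapping to mm9, and MACS 1.4, which was run with total input as the control. The authors deposited a score for each peak. The methods name a cutoff score of 80, which the MEF lists do not follow. Other samples of the series were not used here.

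Members and gene lists were chosen with earlier results of these data known. Genes with a peak in the start window were named, as were single peaks in the spans (up to 10 a list) and genes of the listed groups where a count was 5 or fewer. Sharing 1 base counted as overlap. No test was run between genotypes. Alternatives were other windows, wider spans, an overlap of 50% of the shorter interval, higher scores and equal numbers of peaks. Computations used Python 3.11.15, numpy 2.4.6, scipy 1.17.1, numba 0.67.0, bedtools 2.31.1 and matplotlib 3.10.9. Overlap counts were tested on simulated data and checked against bedtools, with 0 differences over 518 start windows in each list.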

Additional observations from a re-analysis of the deposited data

How the results depend on the processing

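Of 82 alternative values for the main results, 64 lay within the 95% interval of the main value or within 1.5 times a main count, and 18 did not. Some of the 64 values could not move. Equal numbers leave the shorter list as it was, and a count of 0 stays 0 when peaks are removed. The counts of 0 members with KAP1, SETDB1 or H3K9me3 at the start were 0 under each alternative run. Only the longer start window could have raised them. With the highest 50% of KAP1 scores, 13.6% of the other chromosome 18 genes had a peak. That share lies within the interval of 0 of 25 members, which reaches 13.7%. With the 50% of each list that has the highest scores, the percent of chromosome 18 peaks in the spans was 0 for SETDB1 and 0 for KO H3K9me3, members with H3K27ac at the start numbered 0 in WT and 2 in KO, 2 of them in KO only (*Pcdhb5* and *Pcdhb16*, whose WT peaks were left out), where 49.7%, 52.3% and 3.04% of the other chromosome 18 genes had one, and the share of WT peaks that overlap a KO peak was 30.4% for H3K9me3 and 95% for H3K27ac on the rest of the chromosome and 100% for H3K27ac in the spans, over 3 peaks. With a score of at least 80, the percent for KO H3K9me3 was 0, members with H3K27ac in KO numbered 4 (other genes 56.2%), those in KO only 0 (3.04%), and the H3K9me3 share on the rest of the chromosome was 30.4%. With the longer list of each mark shortened to the other by score, the percent for WT H3K9me3 was 0 and that share 45.5%. Spans extended by 50 kb held 2.41% of the WT H3K27ac peaks of the chromosome, where the main value was 1.33%. These spans cover 958674 bases in place of 681334. The value lies above the main interval, 0.664 to 2.36%, and no interval was calculated around it. The share of length was thus shown to lie within the WT interval for the main spans only. With the KO list shortened in this way on chromosome 18 alone, added after the data had been seen, members with H3K27ac in KO numbered 4 (54.8%), those in KO only 0 (2.03%), and the H3K27ac share on the rest of the chromosome was 78.5%. The count of members in KO only, its main value of 4 included, was also added then. The lost calls follow from peaks of low score being left out; other causes were not tested.

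For bases under peaks, 12 of 20 values lay within 1.5 times the main one. With the highest 50% of scores, KAP1 fell from 0.414% to 0.102% of the spans, SETDB1 from 0.315% to 0, WT H3K9me3 from 0.208% to 0.0891%, KO H3K9me3 from 0.0493% to 0 and WT H3K27ac from 3.33% to 1.71%. With a score of at least 80, WT H3K9me3 was 0.0891% and KO 0, and with equal numbers WT was 0. The share of WT H3K9me3 peaks in the spans that overlap KO had no value with equal numbers of peaks, since none was left. No paired analysis was possible because each list came from 1 library. Depth is unknown, so a missing peak does not show missing signal.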

Other observations

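Non-clustered protocadherins, which lie outside the 3 clusters, were read in the same start windows. Of 12 genes, 7 had H3K27ac in WT and 4 in KO, where 54.1% and 52.7% of the protein-coding genes of the autosomes other than 18 did. *Pcdh15*, *Pcdh17*, *Pcdh18* and *Pcdh19* had it in both genotypes, and *Pcdh7*, *Pcdh9* and *Pcdh20* in WT alone, with scores of 3100, 3100 and 64.7. None had it in KO alone. Of the 20901 genes on those autosomes, 594 had a peak in WT alone and 293 in KO alone. *Pcdh10* had a KAP1 peak, with a score of 211, beside 19.1% of the genes of those autosomes. *Pcdh17* had an H3K9me3 peak in WT, with a score of 156, beside 2.92%. *Pcdh1* and *Pcdh12*, on chromosome 18, had no peak at the start. These genes, and *Pcdh11x* and *Pcdh19* on the X chromosome, are not among the genes of the shares given.

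Of 12 classical cadherins, *Cdh2*, *Cdh3*, *Cdh6*, *Cdh10* and *Cdh11* had H3K27ac at the start in both genotypes, and the other 7 in neither, beside the same shares of 54.1% and 52.7%. *Cdh2* lies on chromosome 18, outside the genes of these shares. *Cdh10* had a score of 220.2 in WT and 3100 in KO. *Cdh1* and *Cdh4* had a KAP1 peak, with scores of 202 and 291, beside the same 19.1%. An H3K9me3 peak stood at *Cdh1* in WT, with a score of 303, and at *Cdh4* in KO, with a score of 73.2, where 2.92% of those genes had one in WT and 0.780% in KO.

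KAP1 peaks at the starts of cell type markers, against the same 19.1%, numbered 3 of 10 for fibroblasts (*Fn1*, *Twist1* and *Prrx1*), 2 of 9 for neurons (*Tubb3* and *Neurod1*), 2 of 8 for embryonic stem cells (*Sox2* and *Fgf4*), 1 of 5 for epithelium (*Cdh1*) and 0 for hepatocytes and blood. *Pdgfrb* and *Ttr*, on chromosome 18, and *Syp* and *Syn1*, on the X chromosome, lie outside that background. The start of *Tubb3* had a KAP1 peak with a score of 2663, also in the SETDB1 list, and H3K27ac in both MEF genotypes. *Sox2* had a KAP1 peak with a score of 1442, also in the SETDB1 list, and in WT MEFs both H3K9me3 and H3K27ac peaks.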
